A study of Homo sapiens with 11 samples.

Results

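The ephrin and semaphorin guidance genes are the genes for the ephrins, the Eph receptors, the semaphorins, the plexins and the neuropilins. They were chosen by symbol among RefSeq protein-coding genes on GRCh38, with no measured value, and came to 52 of 20037 genes, 1 further gene of the pattern not being analysed here (9 EphA receptors, 5 EphB receptors, 5 ephrin-A ligands, 3 ephrin-B ligands, 6 class 3 semaphorins, 13 semaphorins of classes 4 to 7, 9 plexins and 2 neuropilins). Each gene was given a window of its body with 5 kb on either side, and the windows added up to 8028 kb. The binding of SMARCA4, SOX10, MITF and TFAP2A and the histone mark H3K27ac were mapped by chromatin immunoprecipitation and sequencing (ChIP-seq) in 92-1, a human uveal melanoma cell line. All cells were 92-1 cells, and 1 group received DMSO, the solvent, for 4 h while the other received FHT-1015, an inhibitor of the chromatin remodelling ATPases SMARCA4 and SMARCA2, also for 4 h. Each antibody had 1 library in each condition, so no difference below has a replicate check, no test was made, and 92-1 stands for 1 line only. The sample titles call the TFAP2A samples AP-2, and the antibody label names TFAP2A.

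Eph receptors are receptor tyrosine kinases that read ephrins on the surface of neighbouring cells, and signals run into both cells. Semaphorins are secreted or membrane-bound cues that act through plexins, and the secreted class 3 semaphorins mostly need a neuropilin as co-receptor. The system steers growing axons and also the neural crest cells from which pigment cells arise. SOX10, MITF and TFAP2A are transcription factors of the neural crest and the pigment cell lineage, SMARCA4 is the motor of BAF remodelling complexes, and H3K27ac is an acetylation found at promoters and enhancers in use.

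The deposited peak lists gave for each peak its position, its fold enrichment and the −log10 p of the authors' peak caller. Retained DMSO peaks are those that an FHT-1015 peak of that antibody overlapped by 1 bp or more, lost peaks are the rest, and FHT-1015-only peaks are those under FHT-1015 that overlapped no DMSO peak. Peaks with −log10 p of at least 10 are called strong. Depth recovered from the peak values gave FHT-1015 to DMSO ratios of 0.918 for SMARCA4, 1.15 for SOX10, 0.854 for MITF, 0.960 for TFAP2A and 1.05 for H3K27ac. The pigment cell label held in the lists: 7 of 7 pigment cell marker genes carried a DMSO SOX10 peak and between 5.05 and 108 kb of H3K27ac (median 15.6 kb), while 9 markers of epithelial, neuronal and immune cells carried between 0 and 7.64 kb (median 0.971 kb) and 6 of these 9 had a SOX10 peak. The guidance genes are long, with a median of 45.3 kb against 24.1 kb for all genes, and the 10 longest held 44.9% of their DMSO SOX10 peaks. In 24 of the 52 windows another protein-coding gene was present as well, and a peak there cannot be assigned to either gene.

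SOX10 peaks were lost from the guidance genes more than those of any other antibody. In DMSO 49 of the 52 windows held a SOX10 peak (94.2%, against 81.6% of all genes), and under FHT-1015 33 did. The windows held 461 SOX10 peaks in DMSO and 133 under FHT-1015, a ratio of 0.289, and the ratio over all genes was 0.341. Of the 461 peaks, 79 were retained, which is 17.1% (95% Wilson interval 13.97 to 20.8, counting error only), against 21.3% over all genes. Strong SOX10 peaks went from 189 to 22, a ratio of 0.116, close to the 0.120 over all genes. Of the 189 strong DMSO peaks, however, 26.5% were retained, against 38.4% over all genes. None of the 22 was FHT-1015-only (0.125% of all genes had such a SOX10 peak). Across the other antibodies, 48 windows held a DMSO peak of SMARCA4 (75.7% of all genes), 45 of MITF (75.2%), 51 of TFAP2A (86.5%) and 43 of H3K27ac (71.3%). No window held more SOX10 peaks under FHT-1015 than in DMSO (6.28% of all genes did), 47 held fewer (66.6%) and 5 held the same number. A gene without a DMSO peak cannot hold fewer, and the guidance genes are longer than most. Among genes with 6 or more SOX10 peaks in both lists together, the number was at most 0.5 times that in DMSO for 68.7% of all genes and for 21 of 28 guidance genes, which is close to that background. None had at least 2 times as many, against 1.69% of all genes.

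MITF peaks went from 362 to 282 in the guidance gene windows, a ratio of 0.779, where the ratio over all genes was 0.971. Retained MITF peaks were 34.3% (29.6 to 39.3), and 41.0% over all genes. Over 1 kb from any protein-coding gene boundary 32.5% of 320 peaks were retained (27.6 to 37.8), against 34.5% over all genes. Within 1 kb of a boundary 47.6% of 42 were (33.4 to 62.3), against 66.1%. Such boundary peaks made up 11.6% of the DMSO MITF peaks of the guidance genes and 20.6% of those over all genes. The number of MITF peaks was at most 0.5 times that in DMSO in 11 of 26 guidance genes, against 16.4% of all genes, and at least 2 times in 3 of 26, against 13.2%. The 11 genes were 5 plexins, 3 semaphorins, EFNA1, EPHB2 and NRP2. The MITF library under FHT-1015 was also the shallower of its pair, at a depth ratio of 0.854. The median number of reads at a summit was 8 against 15 in DMSO, a value taken over the listed peaks and not a measure of depth. The part of depth in these counts was not tested.

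TFAP2A peaks went from 657 to 576 with 60.9% retained (57.1 to 64.5), against 60.7% over all genes, and SMARCA4 peaks from 521 to 474 with 56.4% retained (52.1 to 60.6), against 57.8%. Without the 10 longest members the ratio of peak numbers was 1.05 for TFAP2A and 1.01 for SMARCA4, above 1 in place of 0.877 and 0.910, and at a fold of at least 5 it was 1.27 for SMARCA4. H3K27ac peaks went from 312 to 252 with 59.3% retained (53.8 to 64.6), against 62.5%. The covered length, the bases under peaks, went from 344 to 255 kb for H3K27ac, from 245 to 260 kb for SMARCA4 and from 298 to 265 kb for TFAP2A, while for SOX10 it went from 196 to 49.9 kb. The FHT-1015 to DMSO ratio of covered length was 0.741 for H3K27ac (0.799 over all genes), 1.06 for SMARCA4 (1.09), 0.889 for TFAP2A (0.915), 0.254 for SOX10 (0.268) and 0.713 for MITF (0.825). SMARCA4 covered more of the window under FHT-1015 in 36 of 52 genes, against 55.2% of all genes, and SOX10 covered less in 48, against 79.2%. A window without a peak in either list can show no change, and such windows count in these shares. In DMSO a SMARCA4 peak was present in 92.3% of the guidance genes against 75.7% of all genes, and a SOX10 peak in 94.2% against 81.6%.

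Called by peak number, 7 of 49 guidance genes had at most 0.5 times as many TFAP2A peaks (11.7% of all genes) and 4 of 49 at least 2 times as many (7.68%). For SMARCA4 the counts were 3 of 41 lower (12.4% of all genes) and 4 of 41 higher (9.5%). For H3K27ac they were 11 of 29 lower (28.6% of all genes) and 0 of 29 higher (2.79%). The guidance genes thus gave 14.3% lower for TFAP2A, 7.32% for SMARCA4 and 37.9% for H3K27ac, while the MITF share was 42.3%, the farthest from its background. As a comparison list, 48 genes of other guidance and signalling pathways gave 28 of 31 lower for SOX10, 5 of 36 for MITF, 5 of 47 for TFAP2A, 3 of 39 for SMARCA4 and 8 of 23 for H3K27ac.

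**Figure D1:**
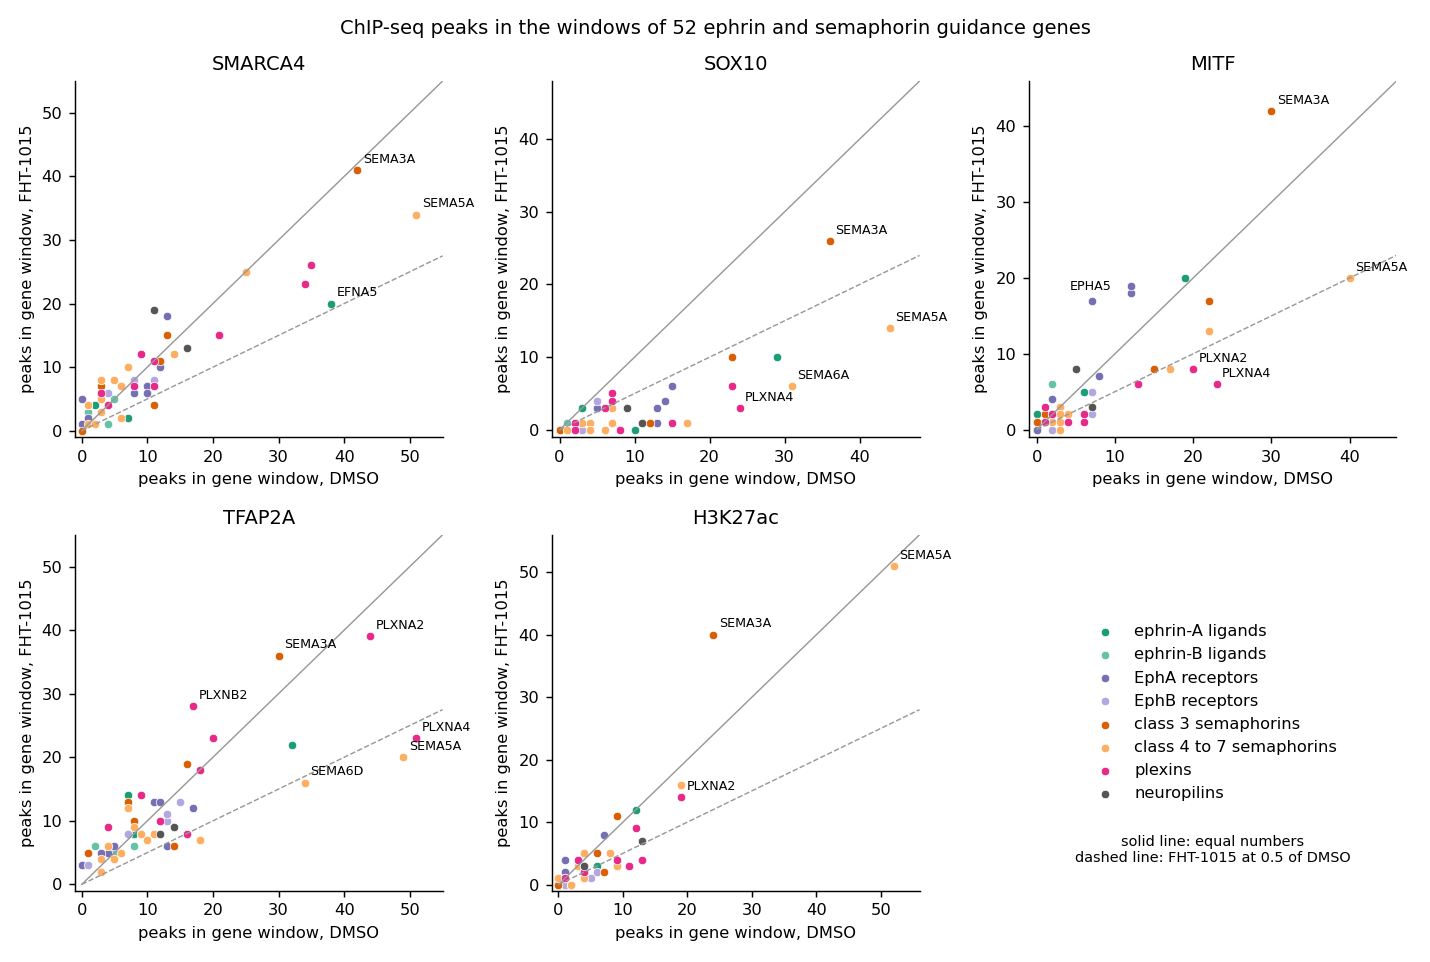
Number of peaks in the window of each of the 52 guidance genes in DMSO (horizontal axis) and under FHT-1015 (vertical axis), 1 panel per antibody and 1 point per gene, coloured by gene group. SOX10 points lie on or below the line of equal numbers, while SEMA3A lies above it for H3K27ac (24 and 40 peaks) and MITF (30 and 42 peaks).

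**Figure D2:**
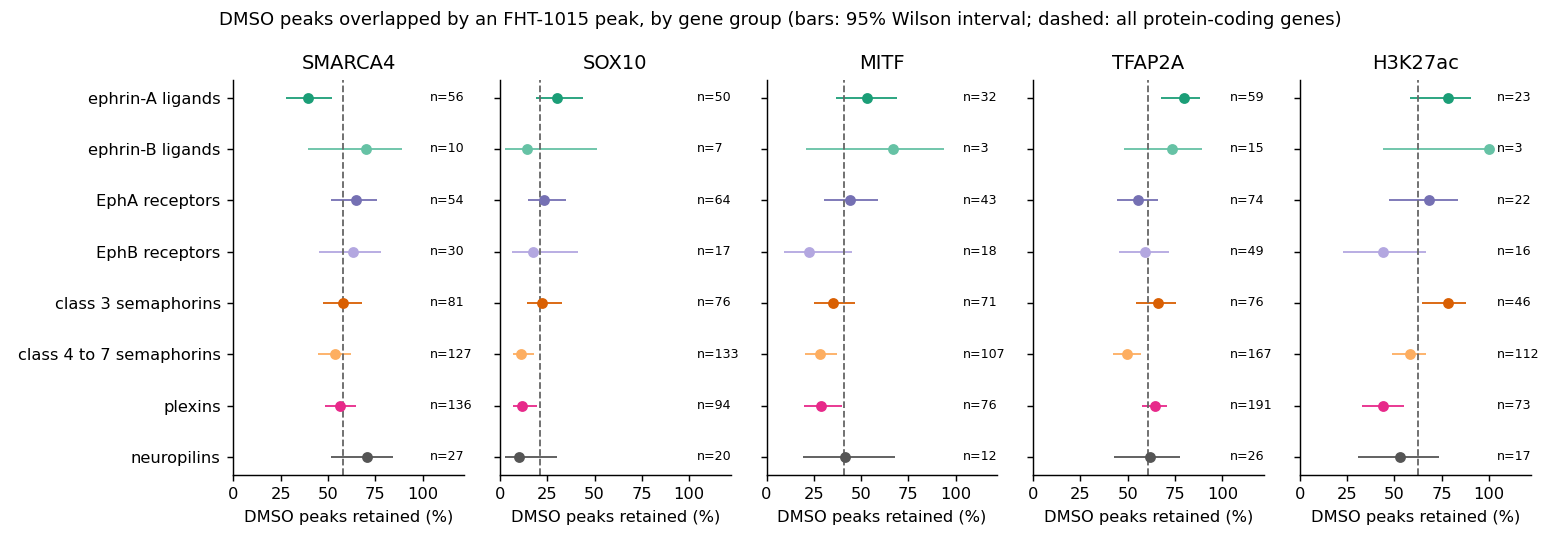
Share of DMSO peaks that were retained, by gene group (rows) and antibody (panels), with 95% Wilson intervals over peaks, the number of DMSO peaks and a dashed line for all protein-coding genes. For SOX10 the plexins (11.7%) and the semaphorins of classes 4 to 7 (11.3%) lie left of the line at 21.3%, and for H3K27ac the plexins (43.8%) lie left of the line at 62.5%.

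Peaks over the gene starts were counted apart. A start window, from 250 bases before to 50 after the listed RefSeq start, was given for 46 of the 52 genes, and in 10 of these the listed start lay over 1000 bp from the outer boundary of the gene. SMARCA4 peaks over the start went from 20 to 28 of 46 genes (32.9% and 44.7% of all genes), with 18 genes in both lists (29.2%). Only the DMSO list had a start peak in 2 genes, PLXNA1 and PLXNB3 (3.72% of all genes), and only the FHT-1015 list in 10 (15.5%). EFNA4, EPHA8 and SEMA4F were among the 10 and had no DMSO peak within 1 kb of the start either, whereas EPHB1, EPHB2, EPHB3 and EPHB4, also among them, had a SMARCA4 peak within 1 kb in both lists, as did PLXNA1 and PLXNB3. In 16 of the 18 genes with a peak in both lists the −log10 p was higher under FHT-1015, against 84.2% of all such genes, and its median went from 9.88 to 24.2, against 7.74 to 15.1 over all genes. H3K27ac lay over 18 starts in each condition (53.9% and 55.7% of all genes), 17 of them the same (52.8%), and 14 of the 17 had a higher −log10 p, against 93.9% of all such genes. The median went from 32.9 to 52.2 in the guidance genes and from 74.4 to 136 over all genes.

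SOX10 peaks over starts went from 25 to 7 of 46 (56.6% and 30.2% of all genes). Starts with a SOX10 peak in both lists numbered 6 of 46 (29.9% of all genes) and belonged to EPHA2, EPHA3, EPHA5, EPHB4, SEMA4B and SEMA4G, of which 4 are Eph receptors. SOX10 was on the start in DMSO alone in 19 genes (26.7% of all genes) and under FHT-1015 alone in 1, EFNA5 (0.328%), which within 1 kb of the start had a peak in both lists, at 29.0 and 13.04. MITF peaks went from 10 to 5 starts (33.4% and 32.2% of all genes), with 3 in both lists (26%), EFNA1, EPHA2 and SEMA4B, 7 in DMSO alone (7.45%) and 2 under FHT-1015 alone (6.19%). TFAP2A lay over 30 starts in DMSO and 27 under FHT-1015 (58.4% and 58.5% of all genes), and 26 had it in both (54.5%). A wider window, 1 kb on either side of the listed start, was added after seeing the data. It gave SMARCA4 at 32 starts in DMSO and 35 under FHT-1015 (57.7% and 63.2% of all genes) and SOX10 at 31 and 11 (63.2% and 40.1%). In it MITF lay at 15 and 16 starts (44.9% and 42.6%), TFAP2A at 39 and 39 (67.4% and 67.4%) and H3K27ac at 23 and 22 (58.6% and 58.6%), so that the smaller number of MITF starts under FHT-1015 was not seen there. Within 1 kb of a boundary of any protein-coding gene, 31.0% of the guidance genes' SOX10 peaks were retained (22.3 to 41.4, 87 peaks) against 42.4% over all genes, and away from boundaries 13.9% (10.8 to 17.8, 374 peaks) against 13.2%.

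The promoters of 5 members are shown because their start windows carry the changes just described, each as the 250 bases before the listed start on the gene's own strand (RefSeq, GRCh38.p14). Capitals mark matches, on either strand, to ACAAAG and ACAATG, which SOX factors can bind, to CACGTG and CATGTG, which MITF can bind, and to GCCNNNGGC, which AP-2 factors can bind. EFNA1 (chr1:155127626-155127875, plus strand) had the strongest SOX10 start peak among the 46 members in DMSO and none over the start window under FHT-1015. PLXNA2 (chr1:208244385-208244634, minus strand) lost its SOX10 start peak too, and EFNB2 (chr13:106535663-106535912, minus strand) and SEMA6C (chr1:151146632-151146881, minus strand) kept strong TFAP2A peaks without SOX10. SEMA7A (chr15:74433959-74434208, minus strand) lost SOX10 and had a higher SMARCA4 peak.
EFNA1: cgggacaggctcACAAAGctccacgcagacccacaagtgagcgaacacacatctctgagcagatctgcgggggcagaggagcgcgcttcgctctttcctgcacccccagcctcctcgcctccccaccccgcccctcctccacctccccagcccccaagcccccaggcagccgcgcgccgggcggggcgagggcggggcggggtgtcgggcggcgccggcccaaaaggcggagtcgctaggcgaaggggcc
PLXNA2: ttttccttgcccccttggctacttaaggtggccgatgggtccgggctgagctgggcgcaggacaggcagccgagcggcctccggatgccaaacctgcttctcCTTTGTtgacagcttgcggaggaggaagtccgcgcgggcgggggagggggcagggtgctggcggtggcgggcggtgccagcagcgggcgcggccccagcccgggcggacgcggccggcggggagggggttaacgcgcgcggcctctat
EFNB2: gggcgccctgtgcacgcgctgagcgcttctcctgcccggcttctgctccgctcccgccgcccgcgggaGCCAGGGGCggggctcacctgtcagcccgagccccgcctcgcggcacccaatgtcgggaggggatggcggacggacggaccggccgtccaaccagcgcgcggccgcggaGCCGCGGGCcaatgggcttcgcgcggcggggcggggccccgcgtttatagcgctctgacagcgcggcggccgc
SEMA6C: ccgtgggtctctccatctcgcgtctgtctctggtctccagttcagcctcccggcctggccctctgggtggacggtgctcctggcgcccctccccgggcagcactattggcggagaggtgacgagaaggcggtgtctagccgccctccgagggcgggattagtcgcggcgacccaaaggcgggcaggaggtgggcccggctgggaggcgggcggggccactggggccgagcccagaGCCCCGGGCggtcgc
SEMA7A: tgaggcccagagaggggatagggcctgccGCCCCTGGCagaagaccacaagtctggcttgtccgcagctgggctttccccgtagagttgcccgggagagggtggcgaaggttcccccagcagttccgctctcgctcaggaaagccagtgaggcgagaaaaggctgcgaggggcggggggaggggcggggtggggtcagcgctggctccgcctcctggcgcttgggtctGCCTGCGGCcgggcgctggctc

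EFNA1 and PLXNA2 hold 1 ACAAAG match each in these bases, that of PLXNA2 being read on the other strand as CTTTGT. EFNB2 and SEMA7A hold 2 matches to GCCNNNGGC each and SEMA6C holds 1. Every promoter shown thus holds a match, and they do not show how often a match goes with a peak. Of the 25 members with a DMSO SOX10 peak over the start window, 3 held ACAAAG (12%), against 9.64% of all such genes. Over the whole start windows GCCNNNGGC was found in 20 of 46 guidance genes (43.5%) and in 28.3% of all 15843 genes with a window. Among starts with a DMSO TFAP2A peak it was found in 14 of 30 members (46.7%) and in 35.7% of all such genes. ACAAAG was found in 10.9% of the members and 12.8% of all genes, ACAATG in 8.70% and 7.95%, CACGTG in 8.70% and 8.88%, and CATGTG in 10.9% and 8.43%. Matches of different motifs may overlap and were counted apart. Of the 10 members with a DMSO MITF peak over the start, 0 held CACGTG, against 18.5% of all genes with such a peak. CATGTG was held by 1 of these 10 (10%), against 7.93% of all such genes, and 10 genes give only rough shares. These matches describe letters in a window and show no binding by themselves.

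At the EFNA1 start the SOX10 peak had −log10 p 71.1 in DMSO and no peak over the start window under FHT-1015, while a peak of 4.49 lay within 1 kb and 4 of the 5 SOX10 peaks of EFNA1 were retained. SMARCA4 there went from 12.4 to 30.2 and H3K27ac from 12.5 to 13.2. The EPHA2 start, by contrast, kept all 5 signals, with SOX10 going from 21.8 to 5.95 and TFAP2A from 219 to 145. The SEMA5A start went the other way for TFAP2A, from 8.51 to 138, and SMARCA4 had a peak of 15.2 there under FHT-1015 alone, although within 1 kb of the start the DMSO list had one of 8.37. At the SEMA7A start SOX10 had 14.1 in DMSO and no peak under FHT-1015, while SMARCA4 went from 10.1 to 44.9. The PLXNB1 start had H3K27ac at 222 in DMSO and 51.5 under FHT-1015, the largest value among the members in DMSO.

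**Figure D3:**
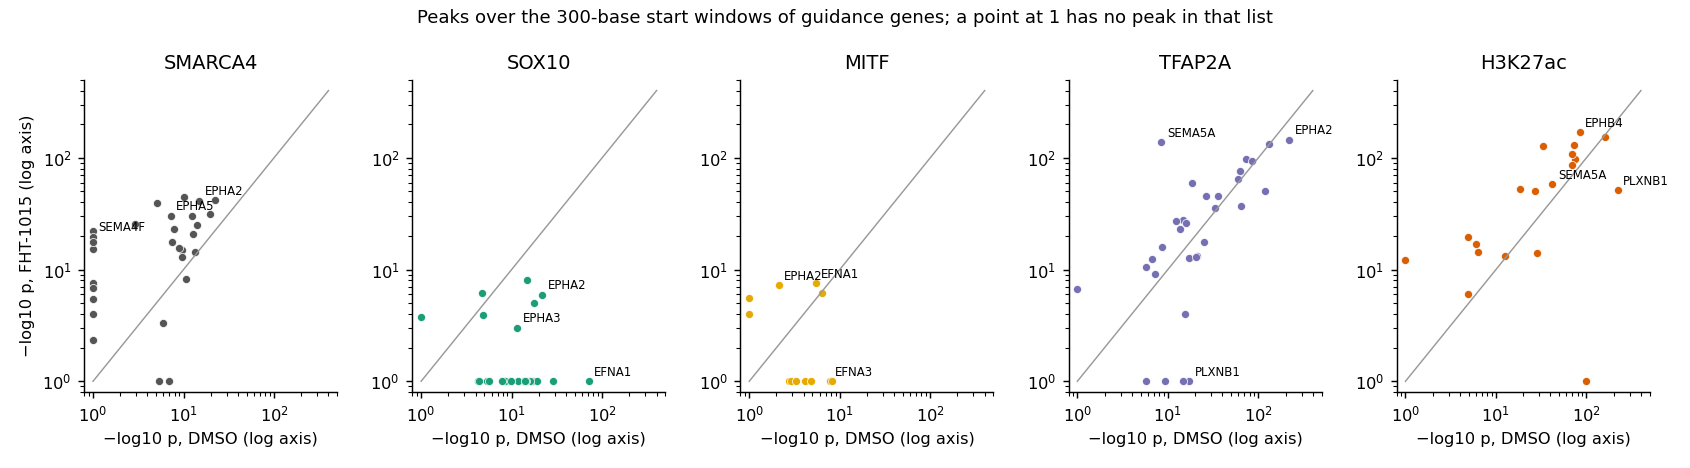
The −log10 p of the strongest peak over the start window of each guidance gene in DMSO (horizontal) and under FHT-1015 (vertical), on log axes, 1 panel per antibody, with absent peaks drawn at 1. For SMARCA4, 16 of 18 genes with a peak in both lists lie above the line of equality, and for SOX10 most points lie on the floor of the panel.

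The 5 ephrin-A genes retained 79.7% of 59 TFAP2A peaks (67.7 to 88.0), against 60.7% over all genes. Of their 57 FHT-1015 peaks of TFAP2A, 18 were FHT-1015-only, which is close to the 32.9% over all genes. They retained 39.3% of 56 SMARCA4 peaks (27.6 to 52.4), and EFNA5 held 38 of the 56. EFNA5, a ligand anchored to the membrane by a lipid, had 20 SMARCA4 peaks under FHT-1015, and its SOX10 peaks went from 29 to 10. Its H3K27ac peaks numbered 12 in both conditions, covering 11.4 and 11.3 kb. EFNA3, also an ephrin-A, went from 10 SOX10 peaks to 0 and from 7 SMARCA4 peaks to 2. It kept a strong MITF peak 2258 bp after its start (chr1:155080780-155081397), with −log10 p 285 in DMSO and 147 under FHT-1015.

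EFNA2, EFNB3, PLXNA3 and SEMA3G were the 4 genes with at least 2 times as many TFAP2A peaks, 7 and 14 for EFNA2 and 2 and 6 for EFNB3. EFNA2 was also the 1 member whose SOX10 coverage was larger under FHT-1015, 0.757 and 1.03 kb, all in weak peaks of at most 6.7. EFNB2, a transmembrane ligand known from blood vessel and neural crest patterning, had 4 SOX10 peaks in DMSO and 1 under FHT-1015, while its weak MITF peaks went from 2 to 6. EFNB1 lies on the X chromosome, and an H3K27ac peak just before its start (chrX:68828528-68828842) was found under FHT-1015 alone at −log10 p 19.5. A weaker H3K27ac peak, of 4.89, lay over the EFNB1 start window in DMSO.

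The EphA receptors kept their number of H3K27ac peaks while SOX10 peaks were lost, and the EphB receptors had fewer of both. The 9 EphA genes had 64 SOX10 peaks in DMSO and 17 under FHT-1015, with 23.4% retained (14.7 to 35.1), and 22 H3K27ac peaks in each condition. Their MITF peaks went from 43 to 68, against the trend of the whole group. Of the 68, 50 were FHT-1015-only, where 57.6% of the FHT-1015 MITF peaks over all genes were. Most lay in 3 genes: EPHA5 went from 7 to 17, EPHA6 from 12 to 19 and EPHA3 from 12 to 18. No FHT-1015-only MITF peak of any member was strong (1.5% of all genes had at least 1). The strong MITF peak near the EPHA5 start (chr4:65667756-65668803) was present in both lists, at 262 in DMSO and 223 under FHT-1015.

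EPHA2, a receptor often overproduced in tumours, went from 9 to 3 H3K27ac peaks while the highest −log10 p in its window went from 69.5 to 108. EPHA3 gained H3K27ac coverage, from 4.86 to 9.26 kb, a change that ranked as gain number 69 among the 20037 genes, and its SOX10 peaks went from 15 to 6. Ranks of gain and fall, here and below, are by the difference in kb without scaling for gene length, which favours long genes. EPHA1 was the 1 member without any DMSO peak of any antibody, and under FHT-1015 it held 3 weak TFAP2A peaks. The 5 EphB genes went from 16 to 4 H3K27ac peaks, and EPHB2 alone went from 4.21 to 1.05 kb. Inside EPHB2, a TFAP2A peak of 83.7 (chr1:22828938-22829489) was lost although SMARCA4 on the same bases went from 13.97 to 33.8. In the flank of EPHB4, a receptor for EFNB2, the strongest TFAP2A peak of all guidance genes (chr7:100801888-100803060) went from 348 to 71.5.

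The class 3 semaphorins on chromosome 7 moved in opposite directions. SEMA3E, SEMA3A and SEMA3D lie there in this order, SEMA3A between 83955777 and 84492725. SEMA3A, a repellent read by NRP1 and plexins of class A, went from 24 to 40 H3K27ac peaks, and the covered length went from 18.2 to 34.0 kb, gain number 11 among 20037 genes. SEMA3A is 537 kb long, and its FHT-1015 to DMSO ratio of covered length was 1.87. Of its 40 FHT-1015 peaks, 27 were FHT-1015-only and 6 of those were strong. SEMA3D went from 5.34 to 12.6 kb (gain number 40) with 9 and 11 peaks. SEMA3E, which signals through PLXND1, went from 4.94 to 1.97 kb and from 12 SOX10 peaks to 1.

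SEMA3A had 36 SOX10 peaks in DMSO and 26 under FHT-1015. Of the 26, 15 were FHT-1015-only (31.7% of such peaks over all genes), all of them below −log10 p 10. The strongest SMARCA4 site in its body (chr7:84025186-84026267) kept all 5 antibodies. There SOX10 went from 132 to 87.9, MITF from 41.7 to 70.9, TFAP2A from 107 to 220 and H3K27ac from 52.6 to 276. A second site inside the gene (chr7:84141594-84142082) had H3K27ac at 5.99 in DMSO and 144 under FHT-1015, and a weak SOX10 peak of 7.20 that the DMSO list lacked. Over all guidance genes, 27.4% of the FHT-1015 H3K27ac peaks were FHT-1015-only (22.2 to 33.2), against 19.1% over all genes, and without SEMA3A the share was 19.8% (42 of 212). Strong FHT-1015-only H3K27ac peaks numbered 11 in the guidance genes, and 5 of the 52 genes held at least 1 (EFNB1, EPHA3, SEMA3A, SEMA6A and SEMA6C), against 2.95% of all genes.

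**Figure D4:**
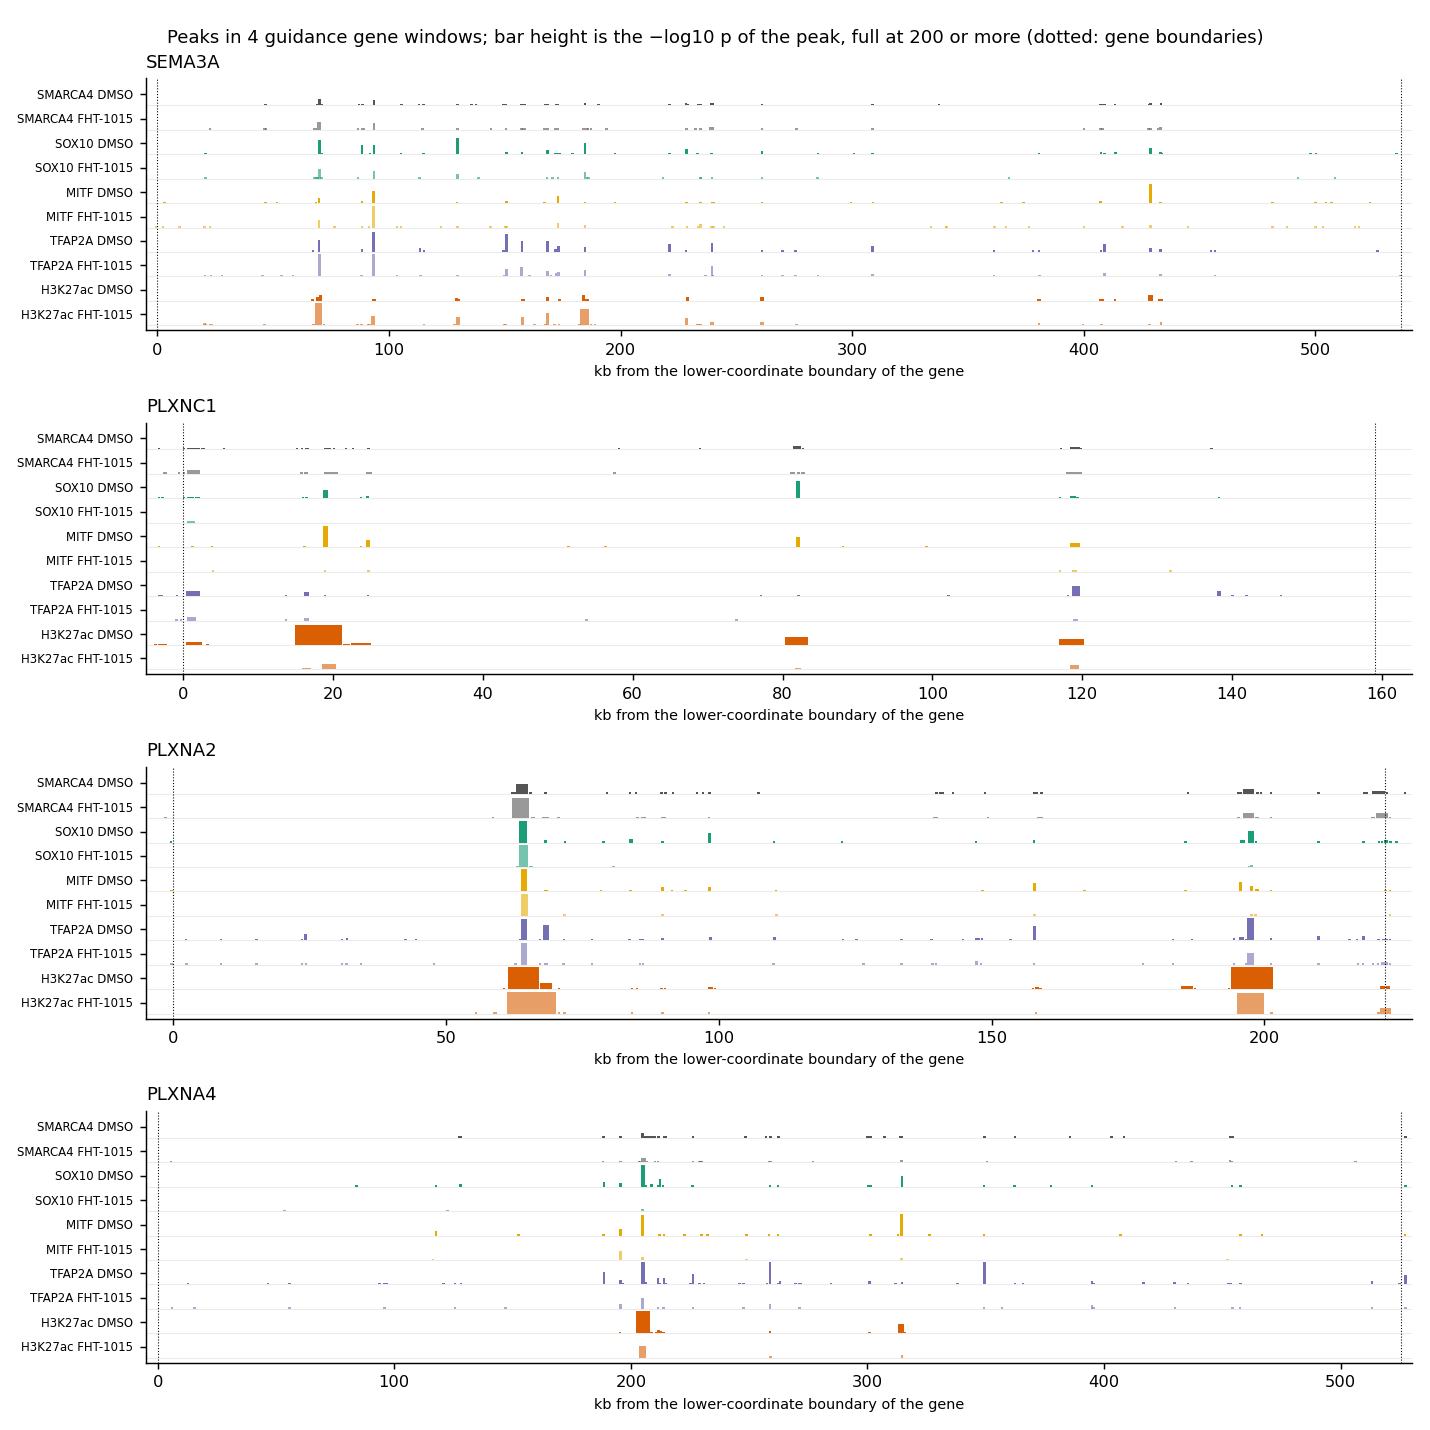
Peaks of the 5 antibodies in DMSO (full colour) and under FHT-1015 (pale) across SEMA3A, PLXNC1, PLXNA2 and PLXNA4, placed by distance in kb from the lower-coordinate boundary of the gene, with narrow peaks widened to stay visible and bar height giving −log10 p up to 200. SEMA3A has taller H3K27ac bars under FHT-1015, PLXNC1 and PLXNA4 have lower ones, and the tallest site in PLXNA2 carries all 5 antibodies in both conditions.

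Semaphorins of classes 4 to 7, which are mostly held in the membrane, retained 15 of 133 SOX10 peaks, 11.3% (6.95 to 17.8), beside 11.7% in the plexins and 10.0% (2 of 20) in the neuropilins. SEMA5A had more SOX10 (44), MITF (40) and H3K27ac (52) peaks in DMSO than any other member, and 49 of TFAP2A, over its 511 kb. Under FHT-1015 it held 14 SOX10, 20 MITF and 20 TFAP2A peaks but still 51 of H3K27ac, whose coverage went from 72.1 to 55.7 kb. SEMA6D went from 34 to 16 TFAP2A and from 17 to 1 SOX10 peaks, and SEMA6A from 31 to 6 SOX10 peaks with H3K27ac steady at 18.9 and 18.98 kb. SEMA4A, whose flank held the strongest lost H3K27ac peak of all members (chr1:156178863-156179354, −log10 p 33.3), went from 5.91 to 2.14 kb. SEMA4D, a ligand of PLXNB1, lost all 4 of its SOX10 peaks and went from 3.65 to 0.961 kb of H3K27ac.

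SEMA7A, a lipid-anchored semaphorin that binds PLXNC1, held the strongest lost SOX10 peak of all guidance genes. This peak (chr15:74421339-74422024, inside the gene) had −log10 p 163 and ranked 452 among the 103379 DMSO SOX10 peaks. On the same bases SMARCA4 went from 31.8 to 5.18 and TFAP2A from 191 to 14.6, and neither MITF nor H3K27ac was listed under FHT-1015. In SEMA5B, 2 sites lost SMARCA4 together with 3 factors: one (chr3:122936433-122936754) had SMARCA4 at 23.9, SOX10 at 36.2, MITF at 31.1 and TFAP2A at 67.9 in DMSO and none of them under FHT-1015. The other (chr3:122970227-122970652) had SMARCA4 at 14.6, SOX10 at 11.03, MITF at 56.6 and TFAP2A at 84.3 in DMSO. Strong FHT-1015-only TFAP2A peaks lay in 10 of the 52 windows (7.61% of all genes), SEMA7A and SEMA3D among them, the latter with the strongest at 19.8. Such SMARCA4 peaks were found in 4 genes (4.42% of all genes), SEMA4B, SEMA4D, SEMA4F and EPHB6.

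Plexins, the semaphorin receptors, retained a smaller share of H3K27ac peaks than all genes, and so did the EphB receptors. The plexins retained 43.8% of 73 H3K27ac peaks (33.0 to 55.2), beside 62.5% over all genes. The EphB receptors retained 7 of 16, which is also 43.8% (23.1 to 66.8). PLXNC1 went from 20.1 to 5.11 kb of H3K27ac, fall number 59 among 20037 genes, and from 15 SOX10 peaks to 1. A site inside it (chr12:94230386-94230972) lost SOX10 at 158 and MITF at 91.2, while SMARCA4 went from 30.02 to 6.74 and H3K27ac from 70.2 to 8.84. This was the second strongest lost SOX10 peak of the members, after that of SEMA7A, its ligand.

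PLXNA4 and PLXNA2, both receptors for class 3 semaphorins with a neuropilin, differed at their strongest sites. The site in PLXNA4 (chr7:132327767-132329100) had the eighth strongest SOX10 peak of the whole DMSO list, at 294, and 23.4 under FHT-1015. Its TFAP2A went from 287 to 100, MITF from 189 to 30.3 and H3K27ac from 357 to 105, while SMARCA4 was 47.6 and 40.1. The site in PLXNA2 (chr1:208085132-208087228) had SOX10 at 247 in DMSO and 249 under FHT-1015, where it was the strongest of all 33268 SOX10 peaks. MITF there went from 358 to 489, also the strongest of its FHT-1015 list, and SMARCA4 from 85.7 to 186, the fourth strongest. The rest of PLXNA2 did not keep SOX10 in the same way: its peaks went from 23 to 6 and its MITF peaks from 20 to 8.

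Across the window of PLXNA4, SOX10 peaks went from 24 to 3, MITF peaks from 23 to 6, TFAP2A peaks from 51 to 23 and H3K27ac coverage from 14.4 to 4.02 kb. PLXNA1 had 13 H3K27ac peaks in DMSO and 4 under FHT-1015, covering 10.2 and 2.81 kb. The strongest lost MITF peak of the guidance genes lay in the flank of PLXNB1 (chr3:48433821-48434304), at 104, where H3K27ac went from 97.2 to 8.09. That flank also reaches CCDC51, so the peak cannot be assigned to either gene. TFAP2A peaks were more numerous under FHT-1015 in 4 of the 9 plexins, going from 17 to 28 in PLXNB2, from 4 to 9 in PLXNA3, from 9 to 14 in PLXNB3 and from 20 to 23 in PLXND1.

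The 2 neuropilins, co-receptors of the class 3 semaphorins, differed from each other. NRP2 went from 15.0 to 5.90 kb of H3K27ac and from 11 SOX10 peaks to 1, while its SMARCA4 peaks went from 11 to 19, covering 8.11 and 8.23 kb. Its strongest site (chr2:205698479-205699782) lost a SOX10 peak of 146, and there MITF went from 257 to 31.5 and H3K27ac from 223 to 34.3. NRP1 had 9 SOX10 peaks in DMSO and 3 under FHT-1015 but 3.18 and 3.92 kb of H3K27ac, with the highest −log10 p going from 46.7 to 139. Among the 19 members with at least 3 kb of MITF coverage in both lists together, NRP1 was the 1 with at least 2 times as much under FHT-1015, 1.34 and 3.13 kb (2.71% of all genes).

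**Figure D5:**
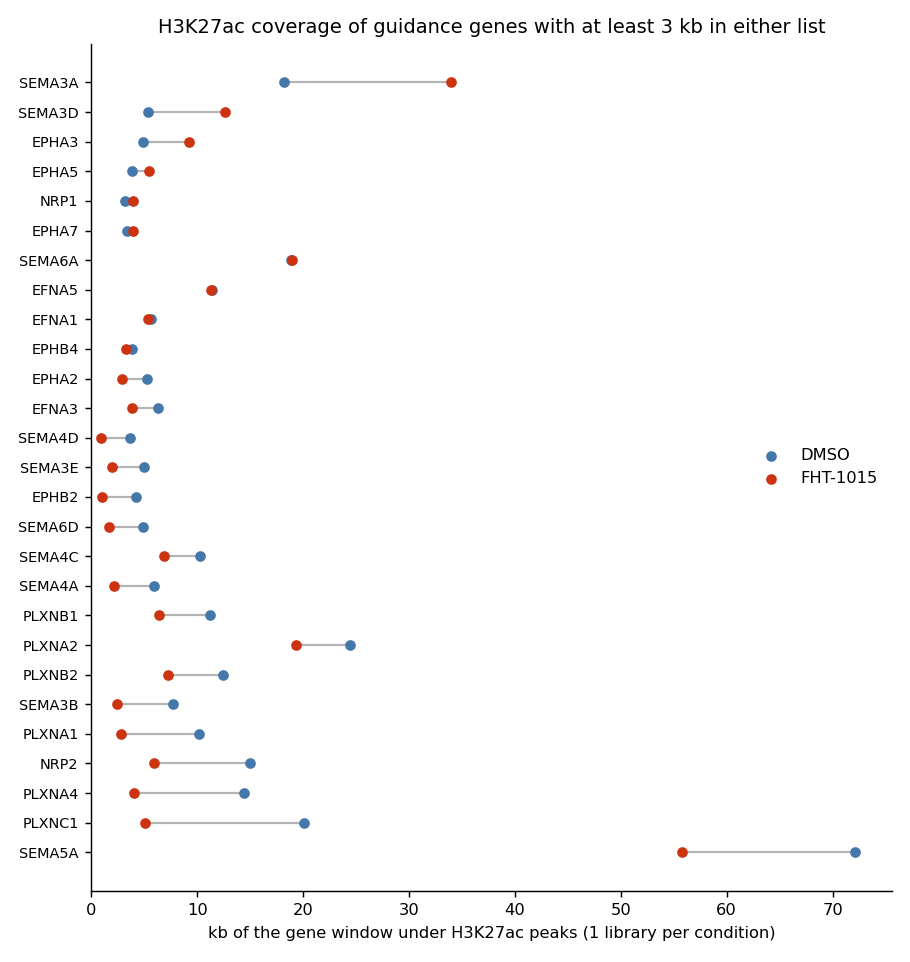
Length of each gene window under H3K27ac peaks, in kb, in DMSO (blue) and under FHT-1015 (red), for the 27 guidance genes with at least 3 kb in either list, sorted by the difference. SEMA3A, SEMA3D and EPHA3 lie at the top with more coverage under FHT-1015, and NRP2, PLXNA4, PLXNC1 and SEMA5A at the bottom with less.

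By covered length, with at least 3 kb in both lists together, 10 of 32 guidance genes held at most 0.5 times the H3K27ac of DMSO, against 9.34% of all genes. These were EPHB2, NRP2, PLXNA1, PLXNA4, PLXNC1, SEMA3B, SEMA3E, SEMA4A, SEMA4D and SEMA6D. SEMA3D alone held at least 2 times as much, 1 of 32, against 0.32% of all genes. For SOX10, 23 of 26 held at most 0.5 times the coverage (78.3% of all genes) and 0 at least 2 times (0.126%), and for MITF 7 of 19 (15.6%) held at most 0.5 times. For TFAP2A the counts were 3 of 47 lower (6.85%), PLXNA4, SEMA3E and SEMA6D, and 1 higher (3.13%), EFNA2. For SMARCA4 they were 0 of 41 lower (2.02%) and 6 of 41 higher (7.97%), the 6 being EFNB3, EPHB3, PLXNA3, SEMA3F, SEMA4B and SEMA6C. This rule on covered length was chosen after seeing the data.

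Guidance gene SOX10 peaks that coincided with a peak of any other antibody in DMSO were retained more often than those that did not. Of 461 SOX10 peaks, 61.4% overlapped a SMARCA4 peak and 24.7% of these were retained (20.1 to 30.1), against 5.06% of the others (2.68 to 9.33). Over all genes the shares were 28.2% and 11.9%. The overlapping peaks were also stronger, with a median −log10 p of 12.2 against 5.20, and the part of peak strength was not tested. H3K27ac peaks that coincided with SOX10 in DMSO, 59.9% of 312, were retained at 78.6% (72.2 to 83.9), against 30.4% (23.02 to 38.9) of the others, where all genes gave 79.3% and 34.04%. The H3K27ac peaks with SOX10 were again the stronger ones, with a median −log10 p of 17.6 against 4.89.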

How the data were processed

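Chromatin of 92-1 cells was fixed, sonicated and immunoprecipitated, per the labels' protocols, giving 10 libraries with a narrow peak list each and 4 broad lists (SMARCA4 and H3K27ac); a DMSO input library had no peak list used here. The submitters' processing notes name BWA, SAMtools, Picard, MACS2 and hg38, and versions are not given in the sources used here. The deposited lists give each peak's fold enrichment, its −log10 p and −log10 q, a score that is 10 times the −log10 p (broad lists: q) without decimals (not used) and the summit offset, as the authors' caller wrote them, 1 library per list. An interval listed more than once would have been taken as 1 peak, and the narrow lists held none. Depth was recovered as a ratio within each antibody, and the counts behind single peaks are otherwise unknown. The recovery assumed that p was a Poisson tail of reads over a background. Fold was assumed to be reads over background with 1 added to each. The SOX10 values under FHT-1015 did not give whole read numbers, so a separate routine was used for that library.

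RefSeq protein-coding genes and promoter windows (GRCh38.p14) were joined to the peaks with Python 3.11.15, pandas 2.3.3, numpy 2.4.6 and scipy 1.17.1, and figures were drawn with matplotlib 3.10.9. A gene was assessed for peak number where both lists together held at least 6 peaks, and called at 0.5 times or less or 2 times or more. Wilson intervals (95%) cover counting error over peaks, which are not replicates. With 1 library per group no p-value was computed. Peak overlap, covered length and the main depth routine were tested on simulated data. The separate depth routine for the SOX10 library under FHT-1015 was not. The text names, for each antibody, the 3 members with the most DMSO peaks, the 3 lower and 3 higher members with the largest changes among those called and the holders of the 3 strongest lost and FHT-1015-only peaks, any member without a DMSO peak, and 10 members of known ligand and receptor pairs; other members named were chosen after their values were seen. The members and lists were chosen with earlier results of these data known. Alternatives were a minimum overlap, stricter thresholds, lists of equal number, wider windows and the broad lists. Leaving out the 10 longest members, covered length and leaving out SEMA3A were alternatives chosen after seeing the data.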

Additional observations from a re-analysis of the deposited data

How the results depend on the processing

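Against retained shares of 56.4% for SMARCA4, 17.1% for SOX10, 34.3% for MITF, 60.9% for TFAP2A and 59.3% for H3K27ac, asking for an overlap of at least 50% of the DMSO peak gave 47.0%, 11.7%, 27.9%, 55.4% and 46.8% in this order. Using DMSO peaks with −log10 p of at least 10 gave 90.4%, 26.5%, 58.0%, 78.1% and 89.9%. Over all genes the shares for such peaks were 88.3%, 38.4%, 67.0%, 76.9% and 90.5%. With that threshold in both lists the share was 63.5% for SMARCA4, 11.6% for SOX10, 54.9% for TFAP2A and 72.9% for H3K27ac. With lists of equal number it was 30.6% for SOX10, 67.3% for TFAP2A and 74.8% for H3K27ac. Without the 10 longest members it was 62.2% for SMARCA4, 71.2% for TFAP2A and 53.2% for H3K27ac. The ratio of peak numbers turned from below to above 1 for SMARCA4 at a fold of at least 5 (1.27) and without the 10 longest members (1.01), and for TFAP2A without the 10 longest (1.05). With both lists limited to strong peaks it was 0.116 for SOX10 and 0.403 for MITF, and limited to that fold 0.128 and 0.443. The cause was not tested. In the other 37 recomputed main results the value stayed within its error or 1.5 times. No paired analysis was possible because each group had 1 library. The depth of a library limits which weak peaks its list can hold, and its part in these values was not tested.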
